A study of Homo sapiens with 5 samples.

Results

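The genes GATA1, GATA2, ZFPM1, KLF1, NFE2, GFI1B, MYB, RUNX1 and SPI1 encode transcription factors, and 1 cofactor, that set erythroid and myeloid fate in blood progenitors. They were measured in TF-1 cells, a human erythroleukaemia line that depends on GM-CSF and responds to erythropoietin (Epo). All probe sets that the array platform's annotation gives to 1 of these 9 symbols and to no other gene were taken. This found 10 of the 22283 probe sets, for 7 of the 9 genes. ZFPM1 had no such probe set, and each of the 11 probe sets that name RUNX1 carries 3 gene symbols, so neither gene has a value here.

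Gene expression was read on Affymetrix oligonucleotide arrays in 5 groups of TF-1 cells with 1 array each. Cells of 2 groups carried DbSCL, a form of the transcription factor SCL (encoded by TAL1) that is defective in DNA binding, from an MSCV retroviral vector marked with GFP. These were the DbSCL SF group, given SF (Steel factor, 20 ng/mL, which binds c-Kit), and the DbSCL Epo group, given Epo at a dose that the labels do not state. Cells of the other 3 groups carried MSCV-GFP, the vector with no SCL insert, and were given SF (20 ng/mL), Epo, or GM-CSF (5 ng/mL). All 5 groups were grown in 10% fetal calf serum with GM-CSF, kept overnight without growth factor, and then exposed to the cytokine for 6 h. No group lacked cytokine, and there was no DbSCL group under GM-CSF. Whether the transduced cells were 1 clone or a pool is not given in the sources used here, and the arrays cannot tell a fraction of cells from an amount of RNA per cell.

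GATA1 and GATA2 are zinc finger proteins that bind the same short DNA word, and in maturing red cell precursors GATA1 takes the place of GATA2 at shared sites, GATA2's own gene among them. SCL binds E-boxes next to GATA sites as part of a complex with GATA factors, LMO2 and LDB1. KLF1 and NFE2 switch on globin and other red cell genes, GFI1B is a repressor needed for red cell and platelet precursors, MYB keeps progenitors dividing, and SPI1 encodes PU.1, which drives the myeloid programme and opposes GATA1.

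Values are log2 signals, and a difference of 1 is a 2-fold difference. Signals under 4.45, the 40th percentile of all values, were treated as too low to order and were set to that floor for differences. With 1 array per group there is no replicate error, and no test was run. A spread of a difference between 2 arrays was estimated for 10 classes of signal from how far the DbSCL effect under SF and under Epo disagreed over all genes. It ran from 0.13 for the weakest to 0.24 for the brightest genes, and includes any true disagreement. The GM-CSF array did not enter this estimate, so for comparisons with GM-CSF the spread is borrowed from the other arrays and may be too small. Every difference is one between single arrays and has no replicate check.

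The arrays themselves differed. Column medians lay between 4.90 and 4.99, while the hybridization controls averaged 10.57 on DbSCL SF, 9.78 on DbSCL Epo, 10.02 on vector SF, 9.58 on vector Epo and 10.53 on vector GM-CSF. For beta-actin, the signal at the 3' end minus that at the 5' end, a sign of RNA quality, ran from 1.89 on vector SF to 3.33 on DbSCL SF. In 58.6% of probe sets at least 2 arrays carry the same value to 6 decimals. Of 9 markers of the line, 6 had a single-symbol probe set (CD34, KIT, IL3RA, CSF2RA, CSF2RB and EPOR), and all 6 were above the floor on every array. Markers of other cell types gave mixed readings, and their part in the results was not tested. Above the floor on every array were 4 of 4 measured T cell markers, 1 of 3 for B cells (CD79A), 1 of 4 for monocytes (LYZ), 3 of 3 for mast cells, 4 of 4 for megakaryocytes, 2 of 4 for endothelium, and 3 of 4 for epithelium or fibroblasts, among them KRT18 at 7.85 to 8.18. CD14, CSF1R, CD163, CDH5, VWF and EPCAM were below it on every array.

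The regulatory sequences are given for GATA2, the gene that varied most, and for KLF1, which of the genes above the floor was the other with an E-box in its window, and had GATA motifs too. They are RefSeq promoter windows of build GRCh38.p14, from 250 bases before to 50 after an annotated start. GATA2 lies on chromosome 3 (128479422 to 128493201) and KLF1 on chromosome 19 (12884422 to 12887201), both on the minus strand. Each window is printed on the gene's own strand with E-boxes (CANNTG) and GATA motifs (AGATAA and TGATAA as well as the forms AGATAG and also TGATAG, on either strand) in capitals.
GATA2 distal start, chr3:128493152-128493451: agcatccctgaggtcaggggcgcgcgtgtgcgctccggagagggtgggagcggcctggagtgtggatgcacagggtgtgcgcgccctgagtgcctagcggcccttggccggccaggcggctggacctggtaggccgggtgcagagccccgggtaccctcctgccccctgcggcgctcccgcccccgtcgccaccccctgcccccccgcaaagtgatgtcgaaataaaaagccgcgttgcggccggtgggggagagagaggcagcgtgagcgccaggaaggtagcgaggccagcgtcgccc
GATA2 proximal start, chr3:128488481-128488780: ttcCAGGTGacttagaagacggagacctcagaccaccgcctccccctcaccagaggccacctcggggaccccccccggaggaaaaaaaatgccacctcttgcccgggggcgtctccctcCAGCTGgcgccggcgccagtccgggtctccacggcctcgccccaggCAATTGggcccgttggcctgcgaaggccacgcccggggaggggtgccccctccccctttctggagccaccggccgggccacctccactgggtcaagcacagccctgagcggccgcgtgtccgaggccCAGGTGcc
KLF1, chr19:12887152-12887451: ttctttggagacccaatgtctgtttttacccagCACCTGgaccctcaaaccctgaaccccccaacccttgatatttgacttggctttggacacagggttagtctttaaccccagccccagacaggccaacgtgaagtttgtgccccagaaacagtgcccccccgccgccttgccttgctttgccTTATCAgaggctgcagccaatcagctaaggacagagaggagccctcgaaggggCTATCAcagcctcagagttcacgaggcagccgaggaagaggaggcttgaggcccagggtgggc
The proximal GATA2 window held 4 E-boxes and no GATA motif, and the distal one neither. The KLF1 window held 1 E-box and 2 GATA motifs, at -66 and -13 from the start. An E-box occurs in 68.7% and a GATA motif in 25.0% of 35116 promoter windows of 300 bases, so these matches are common letters and not evidence of binding. The GATA1 window (chromosome X) and the MYB window (chromosome 6) held neither. Of the other motifs searched, MYB's word (CAACTG, which is also an E-box, and the related forms TAACTG and then CAACGG and also TAACGG) occurred once in the proximal GATA2 window and in 25.7% of all windows. PU.1's (GAGGAA) occurred once each in the GATA1, proximal GATA2, KLF1 and MYB windows and in 27.9% of all windows. KLF1's word (CCNCNCCC) was found 7 times in the proximal and 3 times in the distal GATA2 window, 4 times in GATA1's and 3 times in MYB's, and not in KLF1's own, against at least 1 match in 56.2% of all windows. RUNX (TGTGGT) and NFE2 (TGAGTCA) words, held by 13.1% and 4.95% of all windows, were in none of these 5 windows. NFE2 and SPI1 had no window to search.

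**Figure D1:**
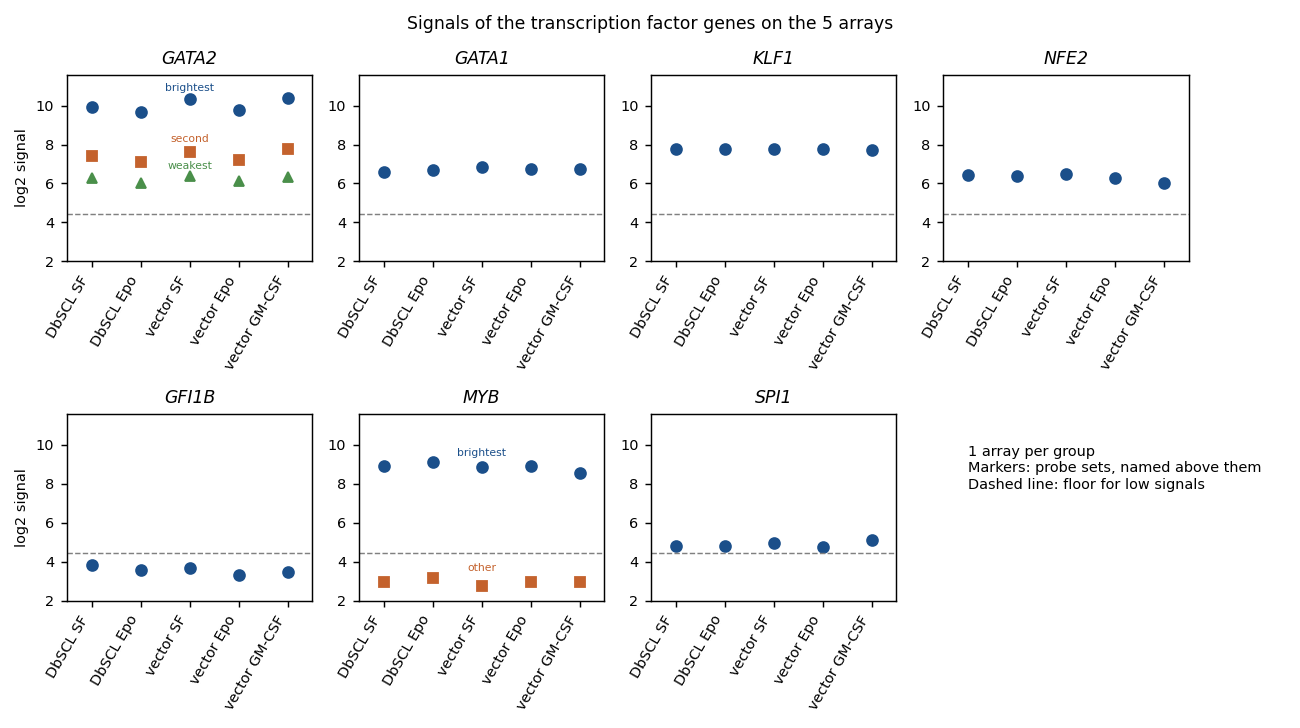
Log2 signal (y axis) of each probe set of the 7 measured genes on the 5 arrays (x axis), 1 array per group and so no error bars, with the floor of 4.45 dashed. GATA2 is lowest on the DbSCL Epo array in all 3 probe sets, KLF1 is flat, and GFI1B lies below the floor on all 5 arrays.

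The brightest GATA2 probe set read 9.91 on DbSCL SF and 9.65 on DbSCL Epo, and 10.34 on vector SF, 9.79 on vector Epo and 10.39 on vector GM-CSF. In this probe set, as deposited, vector cells under SF and GM-CSF were thus the high pair, 0.43 or more above the other 3 arrays. Neighbours within the high pair, and neighbours among the 3 lower arrays, were less than the spread of 0.24 apart. The second probe set read 7.40 on DbSCL SF, 7.08 on DbSCL Epo, 7.61 on vector SF, 7.19 on vector Epo and 7.76 on vector GM-CSF, in the same order as the first. The weakest read 6.26, 6.01, 6.39, 6.14 and 6.31 on these arrays, with vector SF and not vector GM-CSF the highest. Vector GM-CSF was there close to DbSCL SF, so the high pair did not stand apart. The 3 probe sets read the same RNA on the same arrays and are not repeats of the experiment. The span over the arrays was 0.74 for the brightest, 0.67 for the second and 0.38 for the weakest, where the median gene spanned 0.38 and 13.9% of genes spanned as much as the brightest.

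GATA1 (chromosome X, 48786590 to 48794311), the master factor of red cell genes, showed little of this. It read 6.57 on DbSCL SF and 6.69 on DbSCL Epo, and 6.87 on vector SF, 6.76 on vector Epo and 6.76 on vector GM-CSF. Its span of 0.30 was matched or passed by 64.3% of genes. Both DbSCL arrays were below all 3 vector arrays, by 0.07 or more, and of these gaps only that between DbSCL SF and vector SF (0.30) exceeded the spread of 0.21.

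The red cell activators behaved unlike each other. KLF1 read 7.78 on 4 arrays and 7.70 on vector GM-CSF, and 94.3% of genes spanned its 0.08 or more. The 4 equal values agree to 6 decimals, as happens for at least 4 arrays in 6.15% of probe sets. How such ties arose is not given in the sources used here. NFE2, the large subunit of the factor that acts at the globin locus (chromosome 12, 54292111 to 54301015), read 6.41 on DbSCL SF, 6.40 on DbSCL Epo, 6.47 on vector SF, 6.30 on vector Epo and 6.03 on vector GM-CSF. The GM-CSF array was the low one, and the other 4 lay within 0.18 of each other. GFI1B (chromosome 9, 132945531 to 132993434) was below the floor everywhere, at 3.84, 3.59, 3.67, 3.31 and 3.49 in the same order of arrays. No difference is given for it, and its 1 probe set cannot show whether the RNA is absent.

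MYB (chromosome 6, 135181308 to 135219172) read 8.94 on DbSCL SF, 9.10 on DbSCL Epo, 8.87 on vector SF, 8.90 on vector Epo and 8.54 on vector GM-CSF. GM-CSF was again lowest and DbSCL Epo highest, 0.56 apart. Its other probe set lay between 2.75 and 3.15, below the floor. SPI1 (chromosome 11, 47354860 to 47378547) was just above the floor, at 4.78 on DbSCL SF, 4.78 on DbSCL Epo, 4.93 on vector SF, 4.75 on vector Epo and 5.12 on vector GM-CSF. It was highest under GM-CSF, and its values were near the middle of each array's probe sets.

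With Epo set against GM-CSF in vector cells, GATA2 was the 1 of 6 compared genes past 1.5-fold. It was 0.60 lower under Epo, 1.52-fold, where 15.7% of 8581 genes passed 1.5-fold and 2.45% did so downward. The second probe set was 0.56 lower and the weakest 0.17 lower. Bright genes as a class were higher on the Epo array: the 792 genes of GATA2's signal class had a median of 0.30, and 1.39% of them were as low as GATA2. SPI1 was 0.38 lower, and 10.2% of all genes were at least that far down. Its class of weak signals had a median of -0.12, and 10.4% of that class were as low as SPI1. GATA1 did not differ (0.00, a value repeated on both arrays), and KLF1 differed by 0.08. MYB was 0.35 higher and NFE2 0.27 higher, but the median of MYB's signal class was also 0.30, so MYB stood where bright genes did. Quantile normalization took MYB to -0.02 and GATA2 to -0.87. Equal array medians and the mean of all probe sets brought GATA2 under 1.5-fold, at -0.51 and -0.44. None of the 6 passed 2-fold, as 3.58% of genes did. On the Epo array the hybridization controls were 0.95 lower, the 18S ribosomal RNA signal 1.56 lower and the 28S signal 0.69 lower, and their part in these differences was not tested.

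**Figure D2:**
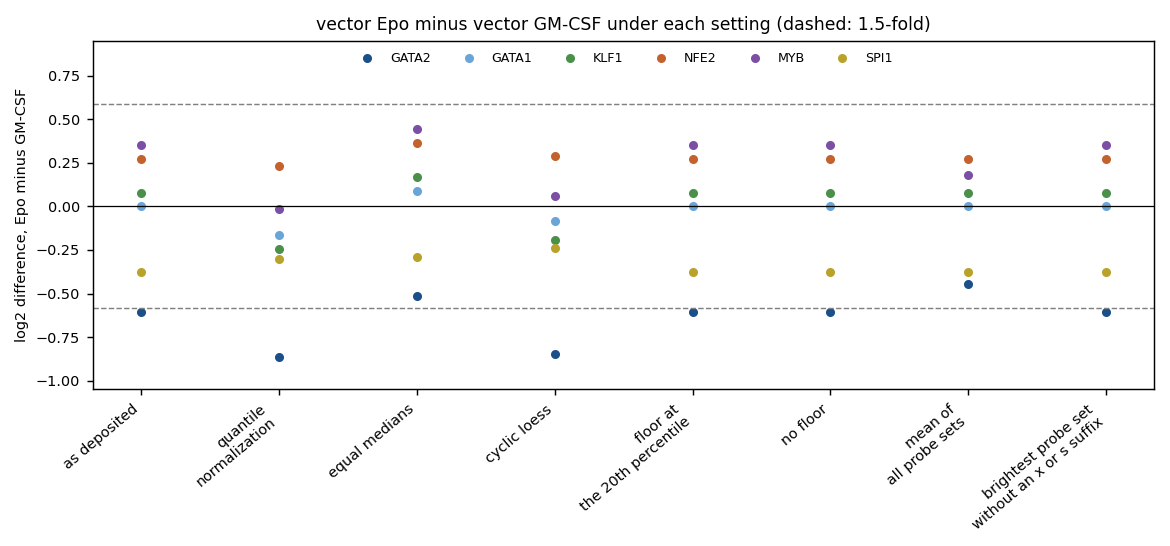
Log2 difference of vector Epo minus vector GM-CSF (y axis) for the 6 genes above the floor, under the deposited values and 7 other settings (x axis), with 1.5-fold dashed. GATA2 is the lowest gene in every column, from -0.87 to -0.44, while MYB runs from -0.02 to 0.44.

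With SF set against GM-CSF, no gene of the 6 passed 1.5-fold, as 8.18% of 8553 genes did, and none passed 2-fold (0.596%). NFE2 came closest. It was 0.45 higher under SF, or 1.36-fold, and 12.4% of genes were at least that far up. This is 2.34 times its spread, which was estimated without the GM-CSF array. MYB was 0.32 higher, with a median of 0.23 for its signal class, and gave 0.05 with quantile normalization. GATA2 differed by -0.05 in the brightest probe set, and by -0.15 and 0.08 in the others. In its signal class, whose median was also 0.23, 8.84% of genes were as low. Quantile normalization took the brightest to -0.23. SPI1 was 0.19 lower, where its signal class had a median of -0.10 and 36.1% of the class were as low. GATA1 was 0.11 higher and KLF1 0.08 higher. These differences and those of Epo share the GM-CSF array, so NFE2, MYB and SPI1, all of which set that array apart, have 1 array behind both results.

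With SF set against Epo in vector cells, GATA2 was 0.56 higher under SF, or 1.47-fold, and 0.397% of 8312 genes were as far up. In its signal class, whose median was -0.06, 1.39% of genes were as high. The other probe sets were 0.41 and 0.24 higher, which 0.938% and 5.03% of genes matched. In units of each probe set's spread these are 2.27, 2.1 and 1.28. At 1.5-fold, which 1.5% of genes passed, no gene of the 6 was counted, nor at 2-fold (0.0361%). Quantile normalization (0.64) and loess put GATA2 past 1.5-fold. SPI1 was 0.19 higher under SF, and NFE2 (0.18), GATA1 (0.11), KLF1 (0.00) and MYB (-0.03) lay within their spreads. The vector Epo array also serves the Epo against GM-CSF comparison, so the low GATA2 value there enters both. The 18S signal was 0.76 higher under SF than under Epo. The 3' minus 5' signal was lower on the vector SF array than on vector Epo, by 0.85 for beta-actin and 0.47 for GAPDH. The part of these array differences was not tested.

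The DbSCL arrays give SF against Epo on separate arrays. GATA2 was 0.26 higher under SF in its brightest probe set, 0.31 in the second and 0.25 in the weakest. These are 1.06, 1.6 and 1.3 times the spread, and 13.0%, 9.21% and 13.8% of 8472 genes were as far up. The direction was thus the one in vector cells in all 3 probe sets. The hybridization controls were also lower under Epo in both cell populations, by 0.79 in DbSCL and by 0.44 in vector cells, as was 18S in DbSCL cells by 0.33, and their part was not tested. GATA1 was 0.12 lower under SF, MYB 0.16 lower, NFE2 0.01 higher, and KLF1 and SPI1 were equal to 6 decimals. No gene of the 6 passed 1.5-fold (3.71% of genes) or 2-fold (0.224%).

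**Figure D3:**
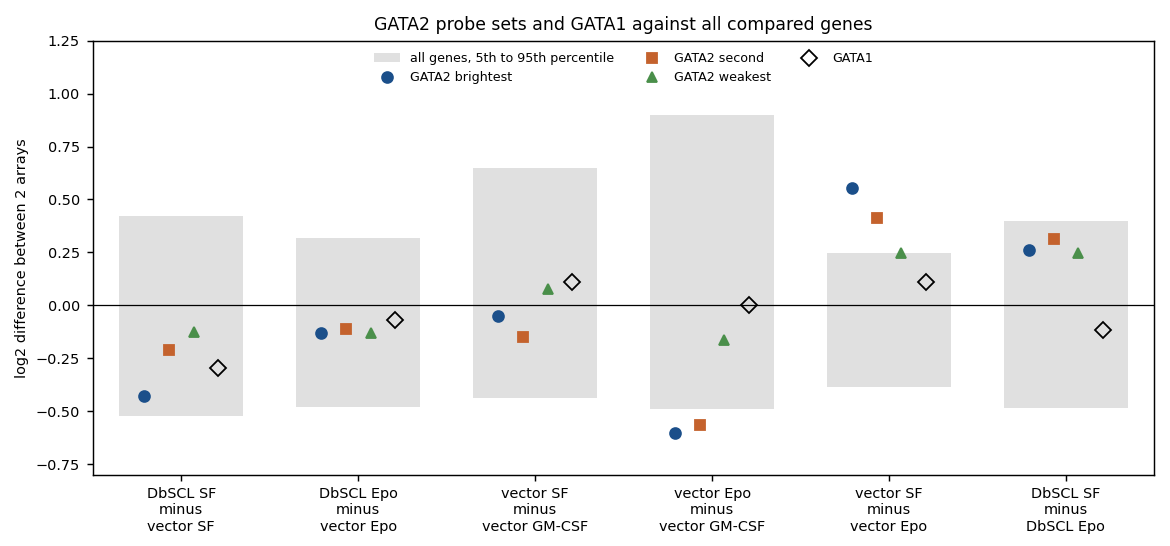
Log2 difference (y axis) of the 3 GATA2 probe sets and of GATA1 in the 6 comparisons (x axis), over grey bars from the 5th to the 95th percentile of all compared genes. The brightest GATA2 probe set is below the bar for Epo against GM-CSF (-0.60) and above it for SF against Epo in vector cells (0.56), and GATA1 is inside every bar.

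The second question of the design was what DbSCL does under each cytokine. Under SF, the DbSCL array was lower than the vector array for GATA2 (-0.43, or 1.35-fold), GATA1 (-0.30) and SPI1 (-0.15), and differed by -0.06 for NFE2, 0.00 for KLF1 and 0.07 for MYB. GATA2 was lower in its other probe sets too, by 0.21 and 0.13. The share of 8450 genes as far down was 7.61% for GATA2's brightest probe set and 13.1% for GATA1. Within their own signal classes, with medians of -0.06 and 0.00, 13.6% of genes were as low as GATA2 and 16.9% as low as GATA1. No gene of the 6 passed 1.5-fold (5.1% of genes) or 2-fold (0.355%). The beta-actin 3' minus 5' signal was 3.33 on DbSCL SF against 1.89 on vector SF, the widest gap among the 5 arrays, and its part was not tested.

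Under Epo, DbSCL differed from vector by -0.13 for GATA2, with -0.11 and -0.13 in the other probe sets, by -0.07 for GATA1, and by 0.04 for SPI1. MYB was 0.20 higher, NFE2 0.10 higher and KLF1 equal. All of these lay within the spread of their signal class. No gene of the 6 passed 1.5-fold (3.47% of 8359 genes) or 2-fold (0.371%). Over both cytokines the mean DbSCL difference was -0.28 for GATA2's brightest probe set, -0.18 for GATA1 and 0.14 for MYB. The DbSCL effect on GATA2's brightest probe set was 0.30 lower under SF than under Epo, with a spread of 0.35 for such a difference. The other probe sets gave -0.10 and 0.00, and the difference was not tested.

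**Figure D4:**
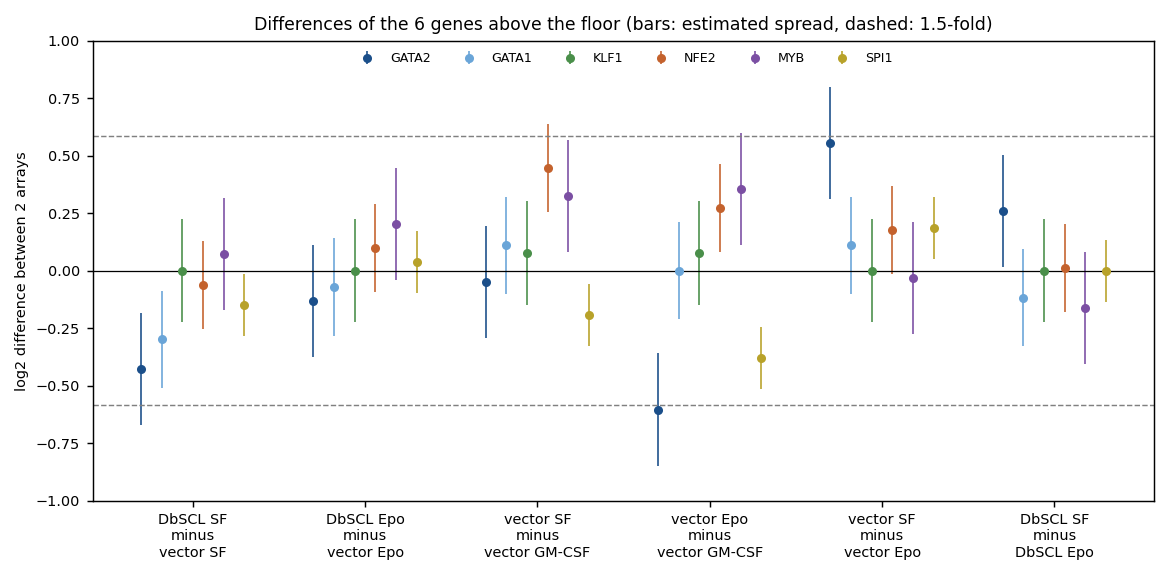
Log2 difference between 2 arrays (y axis) for the representative probe set of the 6 genes above the floor in the 6 comparisons (x axis). Bars are the estimated spread of a difference and dashed lines mark 1.5-fold, which 1 point passes, GATA2 for Epo against GM-CSF (-0.60).

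The balance of the GATA pair can be read from how the difference of GATA1 departs from that of GATA2, since levels of different probe sets are not comparable. GATA2 is taken from its brightest probe set here. For Epo against GM-CSF GATA1's difference exceeded GATA2's by 0.60, and for SF against GM-CSF by 0.16, with a spread of 0.32. GATA1's own difference for Epo against GM-CSF was 0.00, so the 0.60 restates that of GATA2. The other GATA2 probe sets gave -0.56 and -0.17 there. For SF against Epo GATA1's difference was 0.38 below GATA2's in DbSCL cells and 0.45 below in vector cells. In vector cells the other GATA2 probe sets gave smaller differences for SF against Epo, 0.41 and 0.24. For DbSCL against vector the pair's differences were 0.13 apart under SF and 0.06 apart under Epo.

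Patterns like that of GATA2 were sought among 2019 other genes that were above the floor on all arrays and spanned at least 1.5-fold. The closest was SEMA4C, a semaphorin gene, with a root mean square difference of 0.14 between centred log2 patterns and a Pearson r of 0.88 over the 5 arrays. PPDPF (0.15, r of 0.87) and CD248, a surface glycoprotein gene (0.18, r of 0.80), came next. SEMA4C read 8.29 on DbSCL SF, 8.37 on DbSCL Epo, 8.73 on vector SF, 8.12 on vector Epo and 8.71 on vector GM-CSF, with the same high pair as GATA2. Unlike GATA2, it was higher on DbSCL Epo than on DbSCL SF and on vector Epo. SEMA4C has 1 other probe set above the floor, which is not given here. Across 5 arrays that share labelling and scaling, such values describe likeness only.

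Partners, relatives and targets of the 9 factors were taken from 13 lists of 183 further genes, 161 of them with a single-symbol probe set. For Epo against GM-CSF, 8 of 127 compared genes were 2-fold or more higher and 1 was lower (3.58% of all genes in either direction), and 19.7% passed 1.5-fold, against 15.7% of all genes. For SF against GM-CSF it was 1 higher and 1 lower (0.596% of all genes), with 11.0% past 1.5-fold against 8.18%. DbSCL against vector gave 1 higher and 2 lower under each cytokine (0.355% of all genes under SF and 0.371% under Epo), with 8.73% past 1.5-fold under SF (5.1% of all genes) and 4.72% under Epo (3.47%). SF against Epo gave 1 higher and none lower at 2-fold in either cell population, as 0.224% of all genes differed in DbSCL and 0.0361% in vector cells. At 1.5-fold the shares were 3.17% in DbSCL cells (3.71% of all genes) and 2.4% in vector cells (1.5%). The brightest TCF3 probe set alone is the 1 lower gene in both comparisons with GM-CSF and the 1 higher gene in each of the other 4.

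Cofactors of GFI1B had the most members past 2-fold among the lists of partner proteins. These were 2 of 8 for Epo against GM-CSF, where 3.58% of all genes passed. HMG20B, a subunit of the LSD1-CoREST complex, read 5.86 on DbSCL SF, 5.28 on DbSCL Epo, 5.78 on vector SF, 6.60 on vector Epo and 5.37 on vector GM-CSF. Vector Epo alone was high, and the DbSCL Epo array was 1.33 below it, where 0.371% of all genes passed 2-fold. RCOR1, the CoREST scaffold, read 6.86 under Epo and 5.84 under GM-CSF in vector cells, 1.02 apart. The median of the 8 compared cofactors was 0.43 for Epo against GM-CSF, where the median of all genes was 0.00. KLF1's signal class, brighter than HMG20B and RCOR1, had a median of 0.34 there, and NFE2's class had 0.00. The cofactors were not set against their own classes.

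For the other factors' partners, CBFB, which pairs with RUNX proteins, was 1.22 higher under Epo than GM-CSF (9.31 and 8.10), but its other probe set gave 0.18. CREBBP, a histone acetyltransferase that MYB recruits, was 1.01 higher under SF than GM-CSF (6.59 and 5.58). MTA1, of the NuRD complex that ZFPM1's protein binds, was 1.22 lower on DbSCL SF than on vector SF (6.16 and 7.38), while its other probe set gave 0.00. Of 7 or 8 compared KLF relatives, 12 ETS, 4 NFE2 and 1 GATA relative, none passed 2-fold in any comparison. Over all genes the share past 2-fold ran from 0.0361% to 3.58%, so this says little about these families. In the list of other blood transcription factors, TAL1 was 1.02 higher under Epo than GM-CSF and TCF3 gave -3.39. Other probe sets gave -0.02 and 0.02 for TAL1, and -0.63 to 0.00 for TCF3. TAL1, the gene of SCL itself, read 8.29 on DbSCL SF and 8.31 on vector SF, and 8.31 on DbSCL Epo and 8.59 on vector Epo, so this probe set was not higher with DbSCL. Whether it reads the expressed construct was not determined, and it does not check the labels.

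Some targets of the factors passed 2-fold. For Epo against GM-CSF 3.58% of all genes did, and for DbSCL against vector 0.355% under SF and 0.371% under Epo. Of up to 26 compared GATA1 and KLF1 targets, UROS of haem synthesis (1.21) and carbonic anhydrase CA1 (1.01) passed 2-fold for Epo against GM-CSF, and delta globin HBD for DbSCL against vector under SF (-1.04). The list's median was 0.00 for Epo against GM-CSF and 0.10 for SF against GM-CSF. Of 16 PU.1 targets, the cytokine receptor chain CSF2RB was 1.11 higher for Epo against GM-CSF and the signalling adaptor TYROBP 1.08 lower for DbSCL against vector under Epo, with a median of 0.00 in all 3 comparisons of vector cells. Of 12 MYB targets, the cyclin gene CCNB1 was 1.10 higher for Epo against GM-CSF, where the list's median was 0.26, and 0.19 for SF against GM-CSF. None of 10 compared megakaryocyte targets passed 2-fold.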

How the data were processed

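TF-1 cells in 5 groups were read on 1 array each. Each value in the deposited file is a log2 signal that the authors summarised for a probe set. Its unit was read from the values, 2.08 to 13.77. The summary method, its normalization and its software are not given in the sources used here, and a step that borrows across arrays could compress differences and make values equal. Values were used as deposited.

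Gene names came from the platform's annotation, which gives 1 symbol to 19065 of the probe sets that are not controls, several to 1043 and none to 2107. For counts over genes the brightest single-symbol probe set stood for each of 11963 genes. At least 1 array exceeded the floor for 8693 of them. A gene entered a comparison when either array was above the floor. Counts used 2-fold and 1.5-fold. No p-value was computed, and the number of arrays limits the precision. The counting and the spread were tested on simulated data. Coordinates and promoters are RefSeq's, GRCh38.p14. The genes, lists and alternatives were chosen with earlier results of these data known. Named were all 9 genes, the 3 genes most like each that spanned 1.5-fold, and per list up to 4 genes past 2-fold. The classes of signal used beside single genes were added after the values were seen. Alternatives were quantile normalization, cyclic loess (limma 3.58.1), equal medians, a floor at the 20th percentile, no floor, the mean of all probe sets and the brightest probe set without an x or s suffix. Python 3.11.15, pandas 2.3.3 and R 4.3.3 were used.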

Additional observations from a re-analysis of the deposited data

Results flagged for a closer look

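For 3 genes the effect had opposite signs in 2 groups with 1 array each. The differences between the effects were not tested, and each was smaller than its estimated spread (0.30 for GATA1, 0.27 for NFE2, 0.19 for SPI1).

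GATA1 was 0.12 lower under SF than under Epo in DbSCL cells and 0.11 higher in vector cells, a difference of -0.23. NFE2 was 0.06 lower with DbSCL than with vector under SF and 0.10 higher under Epo, a difference of -0.16. SPI1 was 0.15 lower with DbSCL than with vector under SF and 0.04 higher under Epo, a difference of -0.19.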

How the results depend on the processing

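Of 84 counts of genes past 2-fold or 1.5-fold under the 7 alternatives, 80 equalled the count from the deposited values. The lower floor, no floor and the suffix rule could not change any count or difference of these genes. The genes compared were above the floor on every array and kept the same probe sets. Only the normalizations and the mean of all probe sets could move them. For Epo against GM-CSF the count past 1.5-fold fell to 0, without GATA2, with equal array medians and with the mean of all probe sets. For SF against Epo in vector cells it became 1, GATA2, with quantile normalization and with cyclic loess. The cause of these 4 shifts was not tested. The 1 difference past 1.5-fold in the deposited values, GATA2 for Epo against GM-CSF, kept its sign. Smaller differences did change sign under some alternatives, among them GATA1 (-0.03 to 0.18) and GATA2 (-0.24 to 0.02) for SF against GM-CSF. Of 252 differences of single genes, 243 moved by less than the spread and 9 by more. The 9 were all in comparisons with the GM-CSF array, for MYB, KLF1, GATA2 and SPI1. MYB ran from -0.02 to 0.44 for Epo and from 0.05 to 0.40 for SF, KLF1 from -0.25 to 0.17 and from -0.16 to 0.15, GATA2 from -0.87 to -0.44 and SPI1 from -0.38 to -0.24 for Epo. With 1 array per group there were no replicate numbers to block on. Pairing DbSCL with vector by cytokine gives the 2 differences and their mean, as reported, and no model was fitted to them. SPI1 lay close to the floor and GFI1B under it, which limits what their probe sets can show.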

Other observations

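Platelet precursors share GATA1, GFI1B and NFE2 with red cells. Their 4 measured markers were above the floor on every array, as were 4 of 4 T cell markers. Each of the platelet markers had its own order of arrays. ITGA2B, the platelet integrin alpha chain, read 8.54 on DbSCL SF, 8.51 on DbSCL Epo, 8.51 on vector SF, 8.88 on vector Epo and 8.15 on vector GM-CSF. GP1BA, a subunit of the platelet receptor for von Willebrand factor, lay between 7.34 and 7.50 and was lowest on vector Epo. GP9, another subunit of that receptor complex, lay between 5.29 and 5.78, and the platelet chemokine gene PF4 between 5.58 and 6.10, both highest on DbSCL SF.

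Of the mast cell genes, the receptor gene FCER1A read 6.37 on DbSCL SF and 6.53 on DbSCL Epo, and 7.19 on vector SF, 7.28 on vector Epo and 6.59 on vector GM-CSF. The tryptase gene TPSAB1 read 6.00 on DbSCL SF against 5.82 on vector SF, and 5.82 on DbSCL Epo against 5.81 on vector Epo. The gap under SF was about the spread of its signal class (0.17), and the gap under Epo was well within it. CPA3, a mast cell carboxypeptidase gene, read 5.19 on DbSCL SF against 5.00 on vector SF, and 4.97 on DbSCL Epo against 5.06 on vector Epo.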
